A study of Sus scrofa with 20 samples.

Results

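Iron handling genes are the genes through which a body takes up, carries, stores, exports and recycles iron. The 10 genes described here were chosen by name: HAMP, TF, TFRC, TFR2, SLC40A1, SLC11A2, HFE, CP, FTH1 and HMOX1, out of 25764 rows of the expression table. Each of the 10 names had 1 row. Of these, 9 held values above 0 and passed the filter on low values, whereas FTH1 is listed at 0 in all 20 libraries.

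The study sequenced poly(A) RNA of biliary tree stem/progenitor cells of the pig (pBTSCs), and the series also holds cells sorted from pig liver. The paper compared pBTSCs with human cell populations and reports excluding the non-parenchymal cells of pig liver. The comparison of pBTSCs with the pig liver cells was made here. The 5 pBTSC libraries are labelled gallbladder, and the study's methods describe neonatal piglets. Their libraries are S2, S7 and S11, from piglets that carry a fusion of histone H2B with green fluorescent protein (H2B-GFP), and S15 and S20, from wild-type piglets. This line is known only from the paper, and it was not tested. For stem/progenitor cells the methods also describe some hours in a serum-free medium that contains iron-loaded transferrin and insulin. There the cells formed organoids together with early mesenchymal cells. Whether each pBTSC library went through this step is not stated per library, and its effect was not tested. The 15 liver libraries are labelled by surface antigens, with no genotype or treatment: 5 of CD45+ cells (S3, S8, S12, S18, S23), 4 of CD45-/EpCAM+ cells (S4, S9, S13, S19), 2 of CD45-/EpCAM- cells (S5, S14), 2 of CD31+ cells (S16, S21) and 2 of CD146+ cells (S17, S22). CD45 is the common leukocyte antigen, EpCAM an epithelial adhesion molecule, and CD31 and CD146 are surface molecules of endothelial cells. The piglet behind each liver library and its age are not given in the sources used here. In the order of their title numbers the libraries fall into 5 runs of neighbouring numbers, S2 to S5, S7 to S9, S11 to S14, S15 to S19 and S20 to S23. Each run begins with a pBTSC library and holds 1 CD45+ library. The liver libraries were also compared by title number, 8 of them at S3-S14 and 7 at S16-S23.

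Iron circulates bound to transferrin (TF), and cells take it up through transferrin receptors. Hepatocytes secrete both transferrin and hepcidin (HAMP), the hormone that makes cells withdraw the iron exporter ferroportin (SLC40A1) from their surface, so that less iron enters the blood. Hepatocytes sense circulating iron with TFR2 and HFE and then raise hepcidin, and iron exported by ferroportin is oxidised by ceruloplasmin (CP). Kupffer cells, the macrophages of the liver, break down old red cells and free their iron with heme oxygenase 1 (HMOX1).

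Values are normalized counts as the authors deposited them. They are not scaled to gene length, so levels are compared between libraries and not between genes. Depth was estimated from the step that 1 read makes in each library. S13, S15 and S22 came to an estimated 801000, 1570000 and 455000 reads, and the other 17 to between 21300000 and 77800000. A count of 3 reads, taken as the floor, is worth 77.1 normalized counts in S13, 37.7 in S15 and 156 in S22, and at most 4.27 in the others; these floors cover counting error only. Between CD45-/EpCAM+ and CD45+ liver cells limma called no gene among 14910, with 134 at an unadjusted p under 0.05. The summed level of 10 hepatocyte markers was 947982 to 2457497 in all 15 liver libraries, CD45+ libraries included, against 26062 to 67850 in pBTSCs. Stellate and smooth muscle markers summed to 436182 to 1699146 in pBTSCs and 38914 to 198107 in liver. Cholangiocyte markers summed to 20893 to 67204 and 4553 to 20424. Leukocyte markers summed to 1576 to 3765 in CD45+ and 5882 to 8819 in CD45-/EpCAM- libraries. The part of these cell types in the differences below was not tested.

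Most of the 9 measured iron handling genes were lower in pBTSCs than in liver cells. TF, TFR2, SLC40A1, CP and HMOX1 were lower against each of the 5 liver cell types, TFRC against 4 of them, HFE against 3 and HAMP against 1, while SLC11A2 passed the test against none. Calls needed more than 1 unit of log2 fold change together with an adjusted p below 0.05, from limma fitted to log2(normalized count + 1) and adjusted by Benjamini-Hochberg over the 15576 genes that entered the fit. Against CD45-/EpCAM+ liver cells 7 of the 9 were called lower, where 10.3% of all genes tested were. Against CD45-/EpCAM- cells 8 of 9 were called lower, with 16.6% of all genes. Against CD45+, CD31+ and CD146+ cells 6 of 9 were called lower, with 9.54%, 7.62% and 7.75% of all genes. These comparisons share the 5 pBTSC libraries. The paper lists the 5 pBTSC libraries as separate piglets. For the liver libraries nothing used here says which came from separate animals, so their spread may in part be technical, and the p-values measure only the spread between these libraries.

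**Figure D1:**
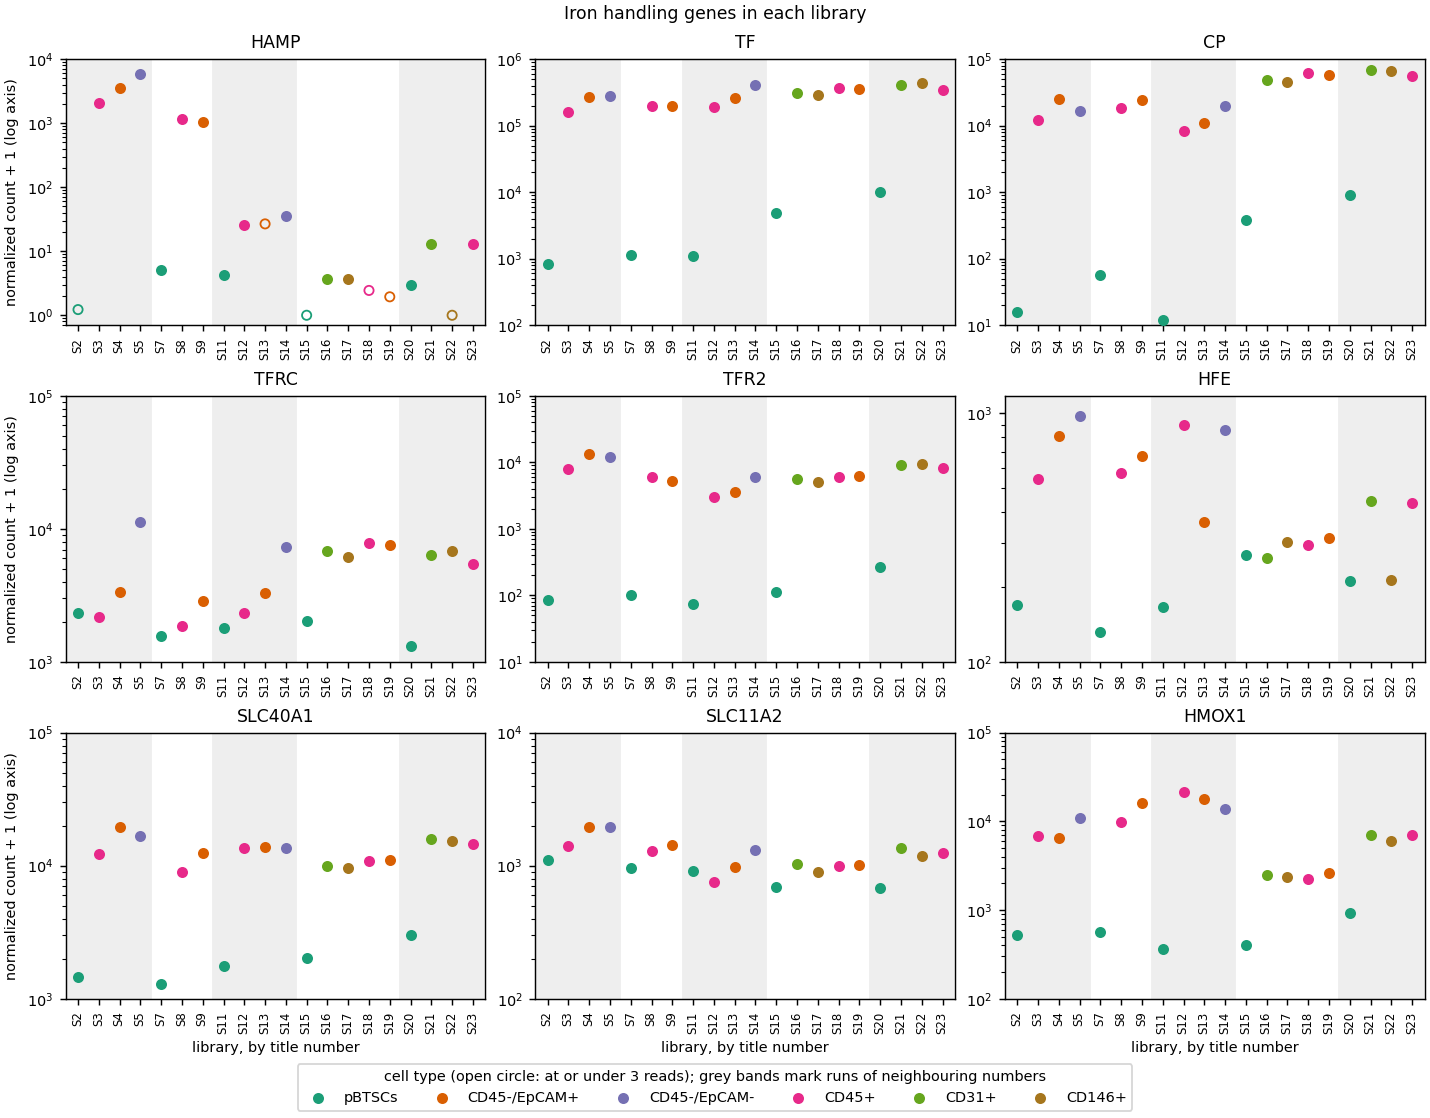
Normalized count plus 1 (vertical log axis) of the 9 iron handling genes with values above 0 in each of the 20 libraries, in the order of their title numbers (horizontal axis). Each point is 1 library, colours are the cell types, open circles lie at or under 3 reads, and grey bands mark alternate runs of neighbouring numbers. TF, CP, TFR2, SLC40A1 and HMOX1 are lowest in the pBTSC libraries, whereas HAMP is high in the liver libraries of S3 to S9 only.

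Hepcidin (HAMP) was close to the floor in every pBTSC library and spread over more than 3 orders of magnitude in liver. Its normalized counts in pBTSCs were 0.227 in S2, 4.13 in S7, 3.18 in S11, 0 in S15 and 1.92 in S20, the first of these being 1 read and the fourth lying under a floor of 37.7. In the CD45-/EpCAM+ liver libraries they were 3552 in S4, 1049 in S9, 25.7 in S13 and 0.941 in S19, so the group itself reaches from inside the pBTSC range to far above it. The 25.7 of S13 is 1 read. The CD45+ libraries followed the same order, at 2040 in S3, 1149 in S8, 24.5 in S12, 1.44 in S18 and 12.2 in S23. CD45-/EpCAM- cells gave 5847 in S5 and 34.6 in S14. The CD31+ libraries gave 2.69 in S16 and 12.2 in S21, and the CD146+ libraries 2.67 in S17 and 0 in S22, whose floor is 156. The highest liver values therefore lay in S3, S4, S5, S8 and S9, whatever antigen they were sorted by.

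With such spread in liver, the lower HAMP of pBTSCs passed the test as fitted only against CD45-/EpCAM- cells (log2 fold change -7.58, SE 2.72, adjusted p = 0.0286), and without S5 it was -3.90 (adjusted p = 0.428). Without the 3 shallow libraries it was -7.27 (adjusted p = 0.0539). Against CD45-/EpCAM+ cells the difference was -5.63 (SE 2.18, adjusted p = 0.0502), and against CD45+ cells -4.92 (SE 2.06, adjusted p = 0.0758). With the run as a block, chosen after seeing the data, both passed, at -5.17 (adjusted p = 0.0103) and -4.92 (adjusted p = 0.00972). Against only the S3-S14 means of both groups, with every library still in the fit, the differences were -7.60 (adjusted p = 0.00302) and -7.36 (adjusted p = 0.00463). Against CD31+ and CD146+ cells, which occur only at S16-S23, the differences were -1.55 (SE 2.72) and 0.32 (SE 2.72), with adjusted p = 0.787 and 0.945. Adjusted p-values here and below are from limma. In bulk libraries, fewer cells of a type and less RNA per cell cannot be told apart.

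Transferrin (TF), the iron carrier of plasma, separated pBTSCs from liver without overlap. Its normalized counts in pBTSCs were 819 in S2, 1132 in S7, 1093 in S11, 4799 in S15 and 9962 in S20. Liver values ran from 162800 to 443350 (median 292413, 15 libraries), so that the lowest liver library still lay far above the highest pBTSC library. The log2 fold change was -6.93 against CD45-/EpCAM+ cells (SE 0.62, adjusted p = 2.3e-07) and between -7.37 and -6.78 over all 5 comparisons. RefSeq lists 2 loci named TF in the assembly Sscrofa11.1, so the assignment of its reads is uncertain.

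Ceruloplasmin (CP), the copper enzyme that oxidises iron for loading onto transferrin, had the largest fold change of the members in all 5 comparisons. Its pBTSC counts were 15.02 in S2, 56.4 in S7, 11.2 in S11, 385 in S15 and 895 in S20, against 8305 to 68382 in liver. The fold change was -8.23 against CD45-/EpCAM+ cells (SE 1.03, adjusted p = 8.3e-06) and reached -9.45 against CD31+ cells (SE 1.28, adjusted p = 4.3e-05). TF and CP were both highest in the same pBTSC libraries, S20 and then S15. Albumin (ALB), the main plasma protein of hepatocytes, moved with them at 287 to 376 in S2, S7 and S11 and 19832 and 25087 in S15 and S20. All 10 hepatocyte markers were called lower in pBTSCs in each of the 5 comparisons. S15 and S20 are the wild-type libraries. Among pBTSC libraries the paper lists the highest RNA integrity for S20, lower values for S2, S7 and S11, and none for S15. The parts of line, RNA quality and hepatocyte RNA in the TF and CP values of these libraries were not tested.

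The transferrin receptors differed from each other in how far they separated the cells. TFR2, the receptor by which hepatocytes sense transferrin iron, stood at 84.0 in S2, 101 in S7, 73.7 in S11, 113 in S15 and 265 in S20. Liver values ran from 3051 to 13483 (median 5991), and no liver library reached down to the pBTSC values. The fold change was -5.79 against CD45-/EpCAM+ cells (SE 0.42, adjusted p = 2.7e-08) and lay between -6.22 and -5.69 over the 5 comparisons.

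TFRC, the receptor that imports transferrin iron in most cells and is abundant on red cell precursors, was much closer. Its pBTSC counts were 2331 in S2, 1564 in S7, 1814 in S11, 2019 in S15 and 1312 in S20. The CD45+ libraries gave 2172 in S3, 1847 in S8, 2313 in S12, 7872 in S18 and 5474 in S23, and the first 3 of these lie inside the pBTSC range. CD45-/EpCAM+ cells gave 3355 in S4, 2867 in S9, 3321 in S13 and 7547 in S19, all above the highest pBTSC library. Against them the fold change was -1.15 (SE 0.38, adjusted p = 0.0226). It was -0.84 (adjusted p = 0.0829) without S19, -1.04 (adjusted p = 0.0529) without S20 and -0.84 (adjusted p = 0.0734) after rescaling to the same total. Against CD45+ cells it was -0.90 (SE 0.36, adjusted p = 0.0599), and -1.89 (adjusted p = 1.8e-05) when S18 and S23 alone stood for them.

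Against CD45-/EpCAM- cells, with TFRC counts of 11266 in S5 and 7339 in S14, the fold change was -2.36 (SE 0.47, adjusted p = 6.2e-04). Against CD31+ cells (6820 in S16 and 6403 in S21) it was -1.90 (adjusted p = 0.00842), or -1.85 without S16 and -1.94 without S21, with adjusted p = 0.0778 and 0.0863. Against CD146+ cells (6195 in S17 and 6843 in S22) it was -1.88 (adjusted p = 0.00721). Without S22 the latter was -1.80 (adjusted p = 0.110).

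HFE, a membrane protein that binds transferrin receptors and takes part in the control of hepcidin, was low in pBTSCs at 168 in S2, 131 in S7, 166 in S11, 268 in S15 and 210 in S20. CD45-/EpCAM+ cells gave 807 in S4, 669 in S9, 366 in S13 and 314 in S19, and CD45+ cells 541 in S3, 576 in S8, 892 in S12, 295 in S18 and 434 in S23. Both groups lay above every pBTSC library. CD31+ and CD146+ cells were nearer, with 261 in S16 and 212 in S22 inside the pBTSC range. S15, which at 268 is the top of that range, and S22 are shallow libraries with floors of 37.7 and 156. The deeper pBTSC libraries reached 210. HFE fell by 1.44 on the log2 scale against CD45-/EpCAM+ cells (SE 0.33, adjusted p = 0.00216), by 1.48 against CD45+ cells (SE 0.31, adjusted p = 0.00129) and by 2.31 against CD45-/EpCAM- cells (SE 0.41, adjusted p = 2.2e-04). When S19, the only CD45-/EpCAM+ library at S16-S23, stood for its group, the difference was -0.77. It was -0.96 (adjusted p = 0.0653) when S18 and S23 alone stood for CD45+ cells.

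Ferroportin (SLC40A1), the only known exporter of cellular iron, was lower in pBTSCs by a similar amount in each comparison. Its counts were 1454 in S2, 1300 in S7, 1760 in S11, 2038 in S15 and 2989 in S20, against 8949 to 19392 in liver with a median of 13551. The fold changes lay between -3.04 and -2.70, with adjusted p between 1.4e-07 and 7.9e-06. SLC11A2, the transporter DMT1 that moves ferrous iron across the gut wall and out of endosomes, was the member that separated least. Its pBTSC counts were 1093 in S2, 957 in S7, 906 in S11, 694 in S15 and 676 in S20, and liver values of 751 to 1956 overlapped them. The fold change was -0.60 against CD45-/EpCAM+ cells (SE 0.23, adjusted p = 0.0501) and -0.91 against CD45-/EpCAM- cells (SE 0.29, adjusted p = 0.0161), the latter under the fold threshold. The other 3 differences lay between -0.47 and -0.27.

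HMOX1, which opens the haem ring and frees its iron, was lower in pBTSCs and varied widely in liver. Its pBTSC counts were 528 in S2, 567.6 in S7, 367 in S11, 402 in S15 and 915 in S20. Liver values ran from 2218 to 21522 (median 6955), without overlap. HMOX1 fell by 3.98 on the log2 scale against CD45-/EpCAM+ cells (SE 0.60, adjusted p = 6.0e-05), by 3.81 against CD45+ cells (SE 0.57, adjusted p = 6.0e-05) and by 4.54 against CD45-/EpCAM- cells (SE 0.75, adjusted p = 1.2e-04). Against CD31+ cells it fell by 2.98 (SE 0.75, adjusted p = 0.00952) and against CD146+ cells by 2.83 (SE 0.75, adjusted p = 0.0101). Without S21 the difference from CD31+ cells was -2.23 (adjusted p = 0.247), and without S22 that from CD146+ cells was -2.16 (adjusted p = 0.252). All 11 macrophage markers were called lower in pBTSCs than in CD45-/EpCAM+ cells, with a summed level of 6125 to 17340 in pBTSCs and 51576 to 183872 in liver. Their part in the HMOX1 difference was not tested.

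In all, 5 of the 9 genes (TF, CP, TFR2, SLC40A1 and HMOX1) were lower in every pBTSC library than in every liver library, which held for 9.21% of all genes tested. The ferritin heavy chain gene FTH1, which encodes the iron-oxidising subunit of the storage protein, is listed at 0 in all 20 libraries and gives no comparison. Whether this 0 means absent RNA or comes from the assignment of its reads was not tested. The light chain gene FTL had counts of 10201 to 14830 in pBTSCs and 30359 to 89125 in liver, and fell by 1.95 on the log2 scale against CD45-/EpCAM+ cells (adjusted p = 3.2e-05).

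**Figure D2:**
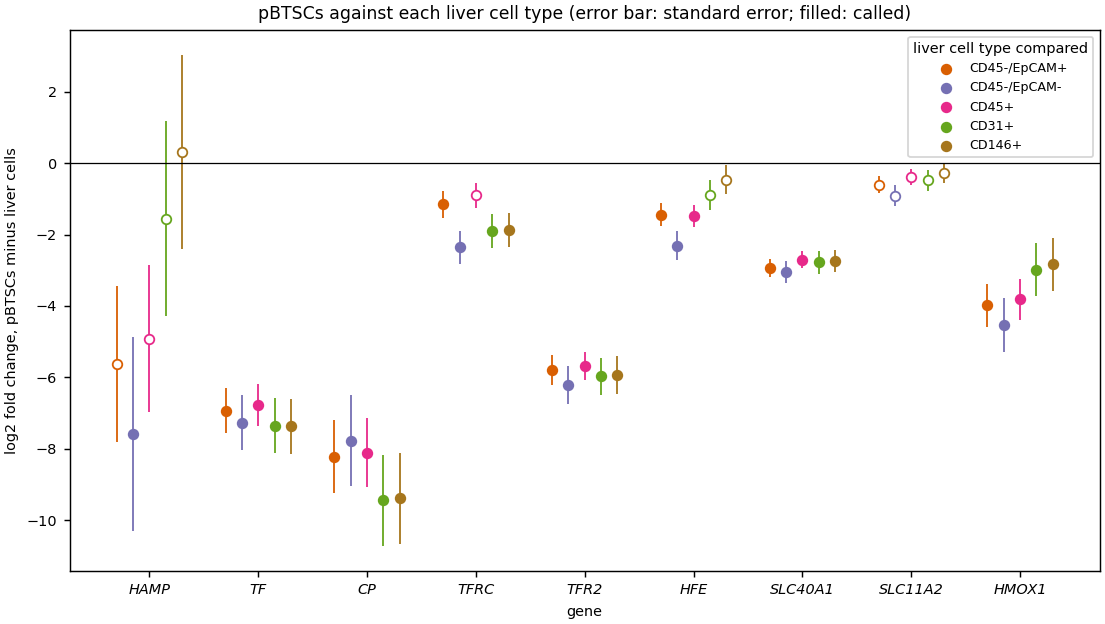
Log2 fold change of pBTSCs minus each liver cell type (vertical axis) for the 9 iron handling genes tested (horizontal axis), from limma on log2(normalized count + 1). Colours are the 5 liver cell types, bars are standard errors, filled points passed the test and open points did not. CP, TF and TFR2 show the lowest points with all comparisons filled, SLC11A2 is open in every comparison, and HAMP is filled only against CD45-/EpCAM- cells.

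The second comparison concerned the liver libraries alone, by title number, with cell type as a term in the fit. TFRC and CP were higher at S16-S23 than at S3-S14, and no member was called lower. That is 2 of 9 members called higher, where 2.27% of the 14910 genes tested were called higher and 1.51% lower. Libraries of a run may share an animal, and the sources do not say so. Counted by runs, this comparison sets 3 runs against 2. The 3 earlier runs begin with the H2B-GFP pBTSC libraries and the 2 later runs with the wild-type ones. If the libraries of a run share an animal, line and title number range cannot be told apart.

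CP counts at S3-S14 were 12269 in S3, 25024 in S4, 16507 in S5, 18546 in S8, 24070 in S9, 8305 in S12, 11069 in S13 and 19977 in S14. At S16-S23 they were 49023 in S16, 46008 in S17, 60975 in S18, 56818 in S19, 68382 in S21, 66813 in S22 and 55241 in S23. Every library of the later range lay above every library of the earlier one, which held for 7.38% of all genes. CP rose by 1.99 on the log2 scale (SE 0.33, adjusted p = 0.00680), by 1.88 without S18 (adjusted p = 0.0540) and by 2.23 in the CD45+ libraries alone (adjusted p = 0.0686), the latter values not passing the test. ALB stood at 513084 to 1348204 at S3-S14 and 1366702 to 1789958 at S16-S23. Per 1000 normalized counts of ALB, CP was 13.9 to 42.4 at S3-S14 and 33.7 to 40.5 at S16-S23, with overlap.

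TFRC at S3-S14 was 1847 to 3355 in the 6 CD45+ and CD45-/EpCAM+ libraries and 11266 and 7339 in the CD45-/EpCAM- libraries. At S16-S23 it was 5474 to 7872 in all 7 libraries. Within the CD45+ libraries both later ones, S18 and S23, lay above the 3 earlier ones. With cell type in the fit, TFRC rose by 1.49 (SE 0.17, adjusted p = 5.5e-04), and by 1.64 in the CD45+ libraries alone (SE 0.21, adjusted p = 0.0471). Without the cell type term the difference was 0.92 (adjusted p = 0.0317), under the fold threshold. In the CD45-/EpCAM+ libraries alone, 3 against 1, it was 1.25 (adjusted p = 0.647). Of 10 erythroid markers 7 were called lower at S16-S23, where 1.51% of all genes tested were called lower. Their summed level was 13647 to 899674 at S3-S14 and 2083 to 3671 at S16-S23. The part of erythroid RNA in the TFRC difference between the ranges was not tested.

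HAMP was the member with the widest difference, and it missed the threshold. Its counts were 24.5 to 5847 at S3-S14 and at most 12.2 at S16-S23. S13 with 1 read and S22 with 0 lie under floors of 77.1 and 156 and cannot be placed. S18 and S19 also lie at or under their floors, which at 2.16 and 1.41 are below every deeper library of the earlier range. Of the deeper libraries all 7 earlier ones lay above all 6 later ones, which held for 14.4% of all genes. The difference was -6.80 (SE 1.92, adjusted p = 0.0502). Without the 3 shallow libraries it was -7.48 (SE 1.83, adjusted p = 0.0253), and in the CD45+ libraries alone -6.11 (SE 1.99, adjusted p = 0.148). The earlier range was itself uneven. The libraries S3, S4 and S5 gave 2040 to 5847, S8 and S9 gave 1049 and 1149, and S12, S13 and S14 gave 24.5 to 34.6, which is nearer to the later libraries than to the other earlier ones. Per 1000 normalized counts of ALB, HAMP was 0.0256 to 8.81 at S3-S14 and at most 0.00857 at S16-S23.

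HMOX1 was 6511 to 21522 at S3-S14 and 2218 to 6976 at S16-S23, overlapping at S4 and S3 with S21 and S23. The difference was -1.80 (SE 0.53, adjusted p = 0.0570), and -1.68 (adjusted p = 0.0509) without the shallow libraries. The highest values, 21522 in S12, 17737 in S13 and 13747 in S14, belonged to the run in which the macrophage markers were also highest, with a summed level of 139663 to 183872 against 51576 to 93947 in the other liver libraries. The lowest, 2218 to 2600 in S16 to S19, coincided with marker sums of 52215 to 57626. S3 and S4 had marker sums of 51576 and 53177 with HMOX1 at 6788 and 6511. The part of macrophage RNA in the HMOX1 difference between the ranges was not tested. HFE was 366 to 978 at S3-S14 and 212 to 445 at S16-S23, a difference of -0.87 (SE 0.28, adjusted p = 0.0785).

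TF, TFR2, SLC40A1 and SLC11A2 differed by 0.81 (SE 0.62), 0.24 (SE 0.44), -0.09 (SE 0.25) and -0.17 (SE 0.26) between the ranges in the limma fit, with adjusted p of 0.453 or more. Ratios to albumin carry a difference of ALB itself, which was higher in every S16-S23 library than in every S3-S14 library. The share of all genes whose ratio to ALB does not overlap was not computed. Per 1000 normalized counts of ALB, TF was 291 to 418 at S3-S14 and 208 to 248 at S16-S23, and TFR2 was 4.42 to 18.3 and 3.40 to 5.71. TFR2 reached its highest liver values, 13483 in S4 and 12128 in S5, in the run that also had the highest HAMP. The effect of title number in CD45-/EpCAM+ cells rests on S19 alone at S16-S23, so its difference from the effect in CD45+ cells was poorly measured. That difference was -0.39 (SE 0.38) for TFRC and -1.79 (SE 3.61) for HAMP on the log2 scale, and no gene was called in this test, in which 1 arm held 1 library.

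**Figure D3:**
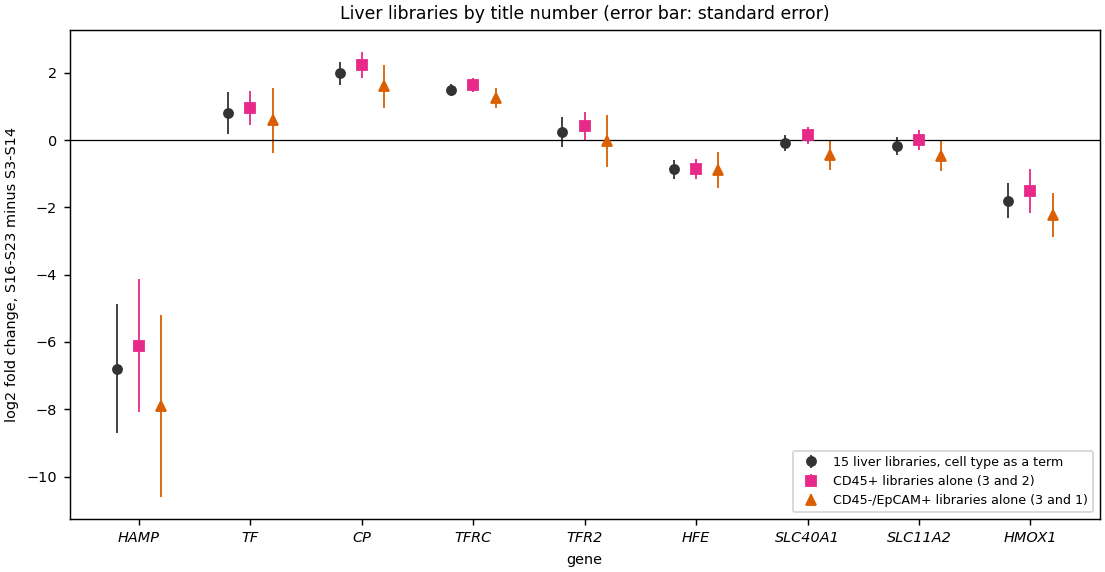
Log2 fold change of the S16-S23 minus the S3-S14 liver libraries (vertical axis) for the 9 iron handling genes tested (horizontal axis), with standard errors. Black circles use all 15 liver libraries with cell type as a term, squares the CD45+ libraries alone and triangles the CD45-/EpCAM+ libraries alone. CP and TFRC lie above 0 and HAMP, HFE and HMOX1 below it in all 3 fits, though only CP and TFRC passed the test in the first.

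The variation of the members in liver can also be described by run. The share of the variance of log2(normalized count + 1) that lay between runs was 95.8% for HAMP, 94.97% for HMOX1, 89.4% for CP, 81.1% for TFR2, 74.8% for SLC11A2, 73.3% for SLC40A1, 68.6% for HFE, 61.4% for TF and 47.2% for TFRC. The median over all genes was 61.3%. These shares are descriptions, since the runs were defined after seeing the data and each has its own mix of cell types. Between cell types the share was 46.8% for TFRC, 33.4% for HAMP and 9.50% for TFR2, with a median of 37.5% over all genes.

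Among the liver cell types, TFRC was the member that differed. It rose by 2.05 in CD45-/EpCAM- over CD45+ cells (SE 0.21, adjusted p = 0.00223), with 0.671% of the genes tested called higher and 3.04% lower, and no other member was called in this comparison. Within each of their runs the CD45-/EpCAM- library was the highest, at 11266 in S5 beside 2172 in S3 and 3355 in S4, and at 7339 in S14 beside 2313 in S12 and 3321 in S13. Without the title number term the difference was 1.46 (adjusted p = 0.123). The same S5 and S14 held the most erythroid RNA, with 899674 and 200991 summed normalized counts of 10 erythroid markers against 2226 to 17004 in the CD45+ libraries, and 7 of the 10 were called higher. The part of erythroid cells in the TFRC difference was not tested.

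Of 9 haem synthesis genes tested, 4 were called higher in CD45-/EpCAM- than in CD45+ cells, 0 lower, and 5 were not called, where 0.671% of all genes were called higher. ALAS2, the first enzyme of the pathway in red cell precursors, rose by 4.47, FECH, which inserts iron into the ring, by 1.85 and UROD, an earlier enzyme, by 1.45. ABCB10, a transporter of the mitochondrial list, rose by 1.42, and NEO1 of the hepcidin control list fell by 1.068. The comparisons of CD45-/EpCAM+, CD31+ and CD146+ with CD45+ cells called no member and no other gene in limma, with 134, 2 and 710 genes at an unadjusted p under 0.05. For TFRC the differences there were 0.47 (SE 0.16), 0.10 (SE 0.22) and 0.08 (SE 0.22).

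**Figure D4:**
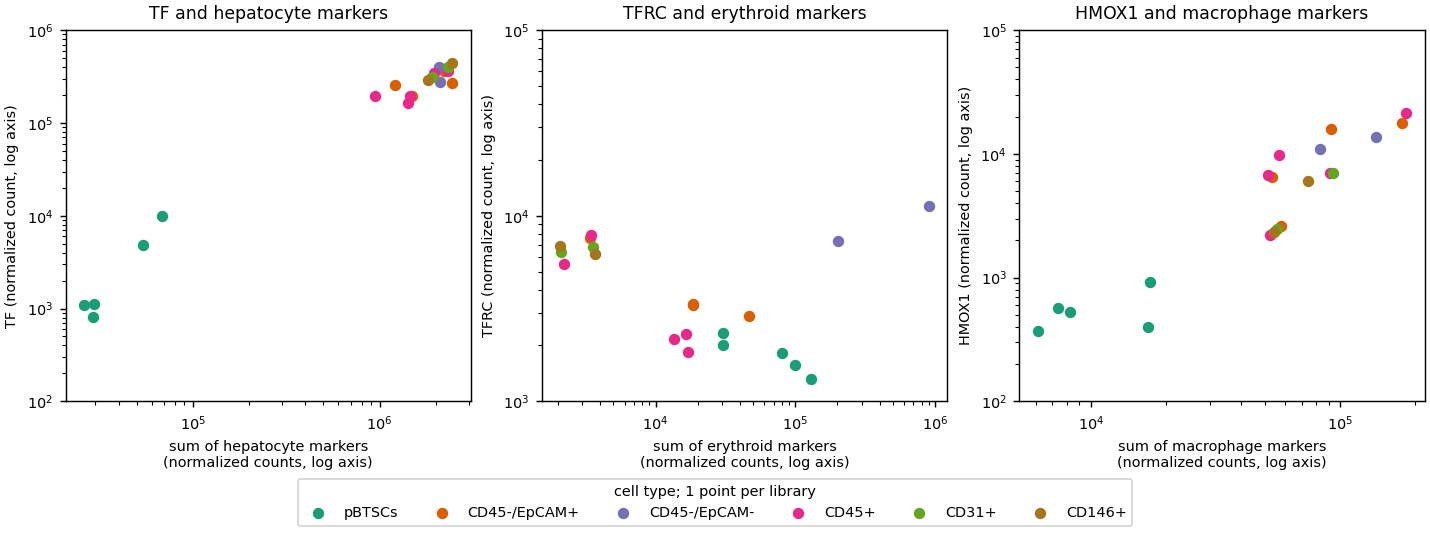
Normalized counts of TF, TFRC and HMOX1 (vertical log axes) against the summed normalized counts of hepatocyte, erythroid and macrophage markers (horizontal log axes), 1 point per library and colours for cell types. TF is low where hepatocyte markers are low. TFRC is highest in the CD45-/EpCAM- libraries, with sums of 899674 and 200991, and is 5474 to 7872 in libraries with the lowest erythroid sums. HMOX1 is highest where macrophage markers are highest.

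The other genes of iron metabolism were read from 7 lists of 65 symbols, of which 59 had a row and 57 entered the fit. In pBTSCs, 5 of these rose and 17 fell relative to CD45-/EpCAM+ liver cells. The counts were 8 and 25 against CD45-/EpCAM- cells, 4 and 16 against CD45+ cells, 1 and 13 against CD31+ cells and 3 and 13 against CD146+ cells. Of all 15576 genes, 2302 were called higher and 1603 lower in pBTSCs against CD45-/EpCAM+ cells, 3114 and 2584 against CD45-/EpCAM- cells, 1716 and 1486 against CD45+ cells, 1049 and 1187 against CD31+ cells and 2255 and 1207 against CD146+ cells. The lists held more lower than higher calls in each comparison, and 35 of the 57 genes were not called against CD45-/EpCAM+ cells.

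Of the 15 genes of hepcidin control, 3 were lower and 2 higher in pBTSCs than in CD45-/EpCAM+ cells, with a median log2 fold change of -0.08 beside 0.08 over all genes. HFE2, which encodes hemojuvelin, a co-receptor needed for hepcidin, fell by 9.48. Its pBTSC counts had a median of 0.290 and reached 25.7, whereas the liver libraries lay at 867 or more. TMPRSS6, the protease that cleaves hemojuvelin, fell by 5.81, and FURIN, which processes prohepcidin, by 1.30. SMAD1, a signal carrier of bone morphogenetic proteins, rose by 1.28 and ACVR2A, one of their receptors, by 1.09. In the comparison of title numbers none of these 15 was called, where 2.27% of all genes tested were called higher and 1.51% lower. HAMP was not called there either. HFE2 differed there by -0.53 (adjusted p = 0.547), TMPRSS6 by -0.32, BMP6, the main iron-induced ligand, by 0.35, and ID1, a target of the same signal, by -0.06.

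Among carriers and scavengers, hemopexin (HPX), which binds free haem, fell by 8.33 in pBTSCs and CD163, the haemoglobin receptor of macrophages, by 3.53, while the other 4 of 6 tested were not called. The ferrireductase STEAP4 fell by 2.73, the zinc and iron importer SLC39A8 by 1.81, and hephaestin (HEPH), the membrane-bound relative of ceruloplasmin, rose by 3.47. CP and HEPH, both ferroxidases, thus differed in opposite directions between pBTSCs and CD45-/EpCAM+ cells. Of 6 storage and sensing genes 3 were lower, namely FTL, the iron-responsive ACO1 by 1.41 and the ferritin receptor NCOA4 by 1.01. Of 9 genes of haem breakdown and transport, BLVRB, a biliverdin reductase, fell by 2.64 and FLVCR2 by 1.73, whereas the exporter ABCG2 rose by 1.56. Of 9 genes of haem synthesis, CPOX, ALAD and ALAS1 fell by 1.89, 1.77 and 1.02 and ALAS2 rose by 2.07. The erythroid markers, which include ALAS2, summed to 30311 to 130051 in pBTSCs and 3422 to 46577 in CD45-/EpCAM+ cells. Of 10 erythroid markers 2 were called higher and 8 were not called. The part of erythroid RNA in the ALAS2 difference was not tested. GLRX5, of iron-sulfur cluster assembly, fell by 1.26.

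Between the title number ranges 3 of the 57 were called, all lower at S16-S23. Lactoferrin (LTF), an iron-binding protein of neutrophils, fell by 6.72, ALAS2 by 2.70 and BLVRB by 1.41. MPO, another neutrophil gene, fell by 6.60 and the beta globin gene HBB by 3.01 in the same comparison. MPO was the 1 of 9 leukocyte markers called lower there. The summed erythroid markers were 2083 to 3671 at S16-S23, below every S3-S14 library. Within S3-S14 they were 13647 in S3, 18587 in S4, 899674 in S5, 17004 in S8 and 46577 in S9. In S12, S13 and S14 they were 16619, 18425 and 200991. HAMP was 2040 in S3, 3552 in S4 and 24.5 in S12, and it was highest in S5. The part of these genes in the HAMP difference between the ranges was not tested.

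The genes whose profiles were most like each member were read over the 17 deeper libraries among 13249 genes, by Pearson's r on log2(normalized count + 1). TF was nearest to CPN1, LECT2 and GBA3 (r = 0.996 to 0.995), TFR2 to AQP9, HAAO and F10, CP to INHBC, AKR1D1 and UGT2B31 (r = 0.995 for INHBC), and SLC40A1 to RAP2C, ATF5 and MST1. HMOX1 was nearest to ADORA3 (r = 0.988), NR1H3 and SMPDL3A. HFE was nearest to TRAF3IP3 (r = 0.983), HAMP to GSN (r = 0.971), SLC11A2 to TRPM2 (r = 0.952) and TFRC to USP15 (r = 0.914), the lowest of the 9. The libraries share runs and cell mixtures, and most genes that separate pBTSCs from liver correlate with one another over them.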

How the data were processed

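Poly(A) RNA of 5 pBTSC and 15 sorted liver cell preparations was sequenced after Illumina TruSeq Stranded mRNA preparation. The authors deposited normalized counts per gene, a signal that is never negative; the submitters' processing notes name STAR, Salmon and DESeq2, and the build is not given in the sources used here. The notes list no role for each tool. The table had no column without a sample. At a tolerance of 0.05 reads, 60.4% to 84.3% of a library's low values were whole reads, so counts were not rebuilt and DESeq2 was not run.

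Linear models of log2(normalized count + 1) were fitted by limma 3.58.1 (R 4.3.3; moderated with a mean trend), p-values were adjusted by Benjamini-Hochberg, and a gene entered when 2 or more libraries of the fit reached 10 normalized counts. All 6 groups entered the pBTSC comparisons; cell type and title number range entered the liver fit. The fits were tested on simulated data. Figures and summaries used Python 3.11.15, numpy 2.4.6, pandas 2.3.3 and matplotlib 3.10.9. Same-type libraries differed by 2.05 to 93.3 times counting noise and were kept separate. The lowest pair, S17 and S22, includes a shallow library. Liver libraries of the same run and different cell types differed by 1.30 to 79.2 times, and those of S16 to S19 by 2.76 to 4.01 times. The main fits treat each library as independent.

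The members and lists were chosen with earlier results of these data known. Every member is named. Of other iron lists, up to 3 called genes with the largest change are named for the CD45-/EpCAM+ and title number comparisons. Uncalled hepcidin regulators, haem genes of the CD45-/EpCAM- comparison, ALB, MPO and HBB were added after their values were seen. Sequences and coordinates are not given. Some list genes are not reported here.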

Additional observations from a re-analysis of the deposited data

Results flagged for a closer look

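Of 27 pairs of a gene and a cell type with 4 to 10 libraries, 1 held a library far from the others, and chance flags about 1 in 20 such pairs. TFRC in CD45-/EpCAM+ liver cells was 7547 normalized counts in S19, whereas S4, S9 and S13 lay between 2867 and 3355. S19 is the only CD45-/EpCAM+ library at S16-S23, and the other 6 liver libraries of that range lay between 5474 and 7872.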

How the results depend on the processing

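TF, TFR2, SLC40A1 and CP were called lower in pBTSCs in all 5 comparisons under every alternative run. The labels carry no replicate numbers by which libraries could be paired. With the run of neighbouring title numbers as a block, chosen after seeing the data, HAMP was called against CD45-/EpCAM+ and CD45+ cells, it was -2.28 against CD146+ cells, where the reported value was 0.32, and 1042 genes were called between CD45-/EpCAM- and CD45+ cells in place of 553. Rescaling to the same total moved the median log2 fold change of all genes in the pBTSC comparisons to between 0.32 and 0.51 from between 0.04 and 0.18, and the share of calls that were higher in pBTSCs to 72.8%, 75.5%, 67.1%, 61.9% and 76.2% from 59.0%, 54.7%, 53.6%, 46.9% and 65.1% against CD45-/EpCAM+, CD45-/EpCAM-, CD45+, CD31+ and CD146+ cells. The cause of the following changes was not tested beyond the samples each setting leaves.

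Without the 3 shallow libraries 1554 genes were called against CD146+ cells in place of 3462, 1101 between the title number ranges in place of 564 and 1112 between CD45-/EpCAM- and CD45+ cells, and HAMP differed by -0.31 and SLC11A2 by 0.000317 against CD146+ cells. Rescaling to the same total gave SLC11A2 0.00952 there. With library weights the counts were 3804 against CD31+ cells in place of 2236, 1683 against CD146+ cells, 1927 with 4 members between the ranges and 292 between CD45-/EpCAM- and CD45+ cells. Against the S16-S23 libraries of CD45-/EpCAM+ cells alone, 1376 genes were called in place of 3905, and HAMP differed by 0.30. Between the ranges, leaving out the cell type term gave 1851 genes and 4 members. The CD45+ libraries alone gave 116 genes and 1 member, TFRC, with SLC40A1 at 0.14 and SLC11A2 at 0.00423, and the CD45-/EpCAM+ libraries alone gave 0 genes and 0 members, with TFR2 at -0.0168. Leaving out the title number term gave 0 members between CD45-/EpCAM- and CD45+ cells.

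Leaving out each library in turn gave 3390 to 6029 genes against CD45-/EpCAM- cells (lowest without S5), 1018 to 2511 against CD31+ cells (lowest without S21), 1152 to 4587 against CD146+ cells (lowest without S22), 88 to 752 genes and 1 to 3 members between the ranges (88 without S19, 136 without S18, 288 without S23, 322 without S8), 17 to 1319 between CD45-/EpCAM- and CD45+ cells (17 without S5, 113 without S8, 145 without S3, 340 without S18, 1319 without S14) and 0 to 1564 between CD146+ and CD45+ cells (1564 without S17). HAMP against CD146+ cells ranged from -0.62 to 1.25. Between the ranges TFR2 ranged from -0.000547 to 0.45, SLC40A1 from -0.26 to 0.14 and SLC11A2 from -0.36 to 0.00423. HAMP between the ranges was called without S5, S12, S13 or S14, and against CD45-/EpCAM+ cells without any 1 of S3, S5, S8, S13, S14, S18 or S19, and against CD45+ cells without S18 or S19; HMOX1 between the ranges was called without S3, S4 or S22.

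HAMP lies at or under the floor in the shallow libraries S13, S15 and S22 and in the deeper S2, S18 and S19. CD31+, CD146+ and CD45-/EpCAM- cells have 2 libraries each, so leaving 1 out assumes that the other varies like the other groups. CD31+ and CD146+ cells occur only at S16-S23 and CD45-/EpCAM- cells only at S3-S14, so that cell type and title number cannot be told apart there. Values against 1 title number range alone stand beside the results they change.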
